A study of Mus musculus with 8 samples.

Results

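The response of the wild-type mouse kidney to ischemia-reperfusion was read from 4 of the 8 libraries of the series, the 2 labelled WT and the 2 labelled WT_IR, which were chosen by their labels alone and compared across all genes. Each library is poly-A selected RNA from whole kidneys of adult male C57BL/6 mice, and each pools the RNA of 3 mice, so a replicate is a pool and its p-values measure the spread between pools. WT carries no injury by its label. The labels do not say whether its kidneys came from mice without surgery or were the non-injured kidneys of operated mice. In WT_IR the left renal pedicle, the stalk that holds the vessels of the kidney, was closed for 45 min and tissue was taken on day 3. The other 4 libraries, KO and KO_IR, come from the same strain and surgery in mice whose kidneys lack G9a by their label, a methyltransferase of histone H3 encoded by Ehmt2, and enter only as the second genotype of a comparison at the end and in the shared estimate of spread.

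Closing the renal artery stops oxygen and substrate supply to a tissue that spends most of its energy on sodium transport. The straight proximal tubule of the outer medulla, which relies on oxidative metabolism and has a poor oxygen supply, is the segment known to be hit hardest. Surviving tubule cells then spread, lose parts of their differentiated programme and divide, while monocytes, macrophages and other leukocytes enter and stromal cells lay down matrix, so that day 3 in the mouse falls in the period of overlapping injury, inflammation and repair.

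The WT libraries held 17596690 and 16584571 fragments assigned to genes and the WT_IR libraries 14965670 and 17020905. Values are FPKM, the fragments of a gene per kilobase of its length, relative to a scaled library size. A count of 3 fragments on a gene of 1 kb equals 0.148 to 0.194 FPKM in these 4 libraries, a floor that covers counting error only. Markers of the kidney were at high level in WT: Umod of the thick ascending limb was at 1612 and 1419 FPKM, Slc34a1 of the proximal tubule at 1396 and 1095 FPKM and Aqp2 of the collecting duct at 484 and 248 FPKM. Genes of the adrenal gland, adipose tissue and skeletal muscle summed to at most 1.37 FPKM in each of the 4 libraries.

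Of the 15607 genes whose mean reached 0.5 FPKM across 8 libraries, 2980 were higher in WT_IR than in WT and 3616 were lower at an adjusted p under 0.05 in limma, which is 19.1% and 23.2% of the genes tested. The median log2 difference of all genes was -0.02. Folds below are ratios of mean FPKM, and log2 differences are on the log2(FPKM + 1) scale, which understates the change of low genes. A rise of at least 2-fold on that scale was reached by 1141 of the called genes, 7.31% of those tested, and a fall of that size by 1062, or 6.8%. At least 4-fold, 265 genes rose and 102 fell. At least 8-fold, 58 rose and 24 fell. A difference was bounded on that scale for many genes as well: the 95% interval of 4913 genes lay wholly within 0.5 log2 units of 0. For low genes this bound leaves room for a larger fold of FPKM. Of these 4913 genes 175 were themselves called. These counts rest on the scaling. Values converted to TPM, which sum to the same total in every library, moved the median of all genes to 0.43 and gave 7486 genes higher and 1554 lower, so 82.8% of the calls were rises in place of 45.2%. The summed FPKM of the libraries shows where that difference enters, since it was 427188 and 418032 in WT and 293646 and 298778 in WT_IR. Genes are given below on the FPKM scale. Rises and falls counted in lists are to be read beside the 19.1% and 23.2% of all genes.

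The direction of change went with the level of the gene, taken as its mean over all 8 libraries. These include the libraries compared, so level and change are not independent. Among the 2123 genes with a mean of 0.5 to 1 FPKM, 20.4% rose and 5.61% fell. Among the 460 genes between 100 and 1000 FPKM, 12.4% rose and 65.2% fell. Of the 25 genes above 1000 FPKM, 20 fell and 1, Spp1, rose, with a median log2 difference of -1.41 over the 25. More genes were detected after injury, with 22343 and 22375 genes above 0 FPKM in WT and 24006 and 24025 in WT_IR.

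**Figure D1:**
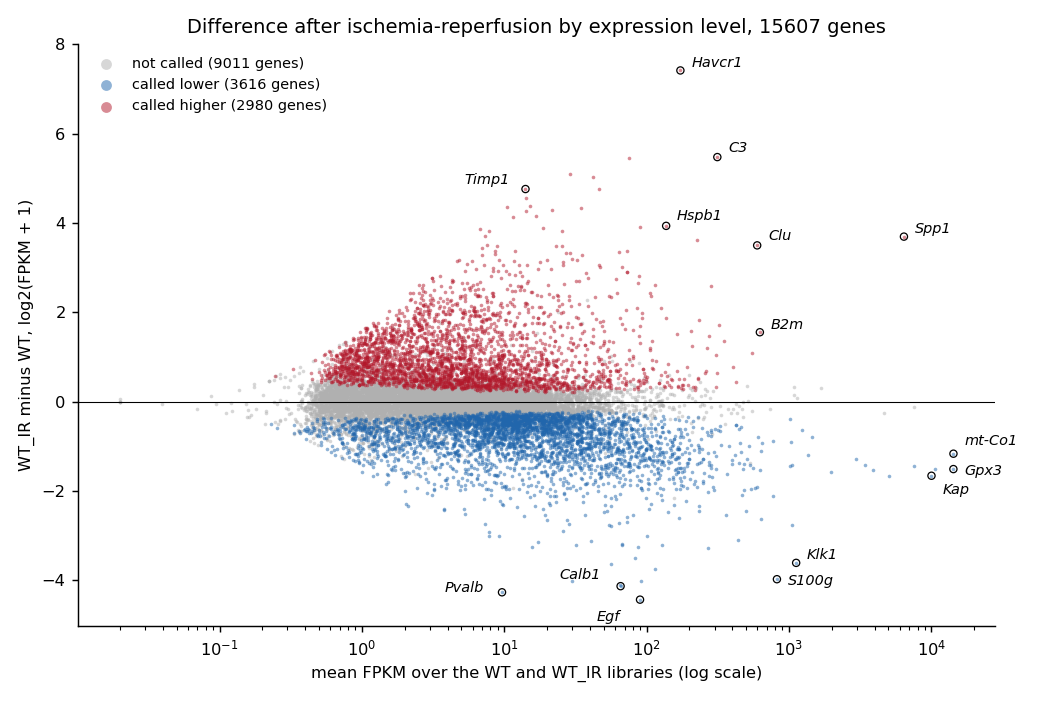
Each point is 1 of the 15607 genes tested, with its mean FPKM over the WT and WT_IR libraries on a log axis and its log2 difference between WT_IR and WT. Genes called higher and lower are coloured. The cloud of called genes leans downwards at high level. Of the 25 genes with a mean above 1000 FPKM over all 8 libraries, 20 fell.

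Known injury genes of the tubule were among the genes with the largest rises. Havcr1 encodes KIM-1, a receptor on injured proximal tubule cells that takes up dead cells, and stood at 0.828 and 1.23 FPKM in WT and 344 and 345 FPKM in WT_IR, a log2 difference of 7.42 (SE 0.67, adjusted p = 0.000218). Lcn2, the siderophore-binding lipocalin NGAL, was at 2.82 and 1.95 FPKM in WT and 145 and 149.8 FPKM in WT_IR. Krt20, a keratin of simple epithelia, was at 0.1601 and 0.302 FPKM in WT and 28.1 and 28.3 FPKM in WT_IR (log2 difference 4.57, SE 0.19, adjusted p = 4.59e-05). In each of these genes both injured pools lay far above both uninjured pools and close to each other. Aldh1a2, which makes retinoic acid and lies on chromosome 9 at 71215789 to 71296243 (GRCm38), had the smallest p of all genes. It stood at 0.899 and 0.829 FPKM in WT and 31.9 and 33.1 FPKM in WT_IR, a log2 difference of 4.17 (SE 0.092, adjusted p = 9.27e-06).

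Some genes went from near absence to clear presence. A level under 0.5 FPKM in both WT libraries and of at least 5 FPKM in both WT_IR libraries was found for 20 genes. They included the protease inhibitor Timp1 at 0.0695 and 0.0729 FPKM in WT and 25.8 and 30.5 FPKM in WT_IR, the monocyte-attracting chemokine Ccl2 at 0.108 and 0 FPKM in WT and 17.4 and 24.5 FPKM in WT_IR, and the hyaluronan receptor Cd44 at 0.128 and 0.191 FPKM in WT and 17.1 and 13.8 FPKM in WT_IR. The set also held the acute-phase protease inhibitor Serpina3n, the cytokine Lif, Thy1, Smpdl3b, the macrophage receptors Fcgr1 and C3ar1, and the small proline-rich proteins Sprr2f and Sprr2g of barrier epithelia. The interleukin-36 gene Il1f6 was listed at 0 in both WT libraries and at 13.8 and 13.2 FPKM in WT_IR. Near-identical copies in the Sprr2f, Serpina3n and histocompatibility families can share fragments, so their single values are uncertain. The opposite pattern was found for 1 gene, Pvalb, the calcium buffer parvalbumin of the early distal convoluted tubule, at 20.03 and 18.5 FPKM in WT and 0 and 0.0946 FPKM in WT_IR.

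**Figure D2:**
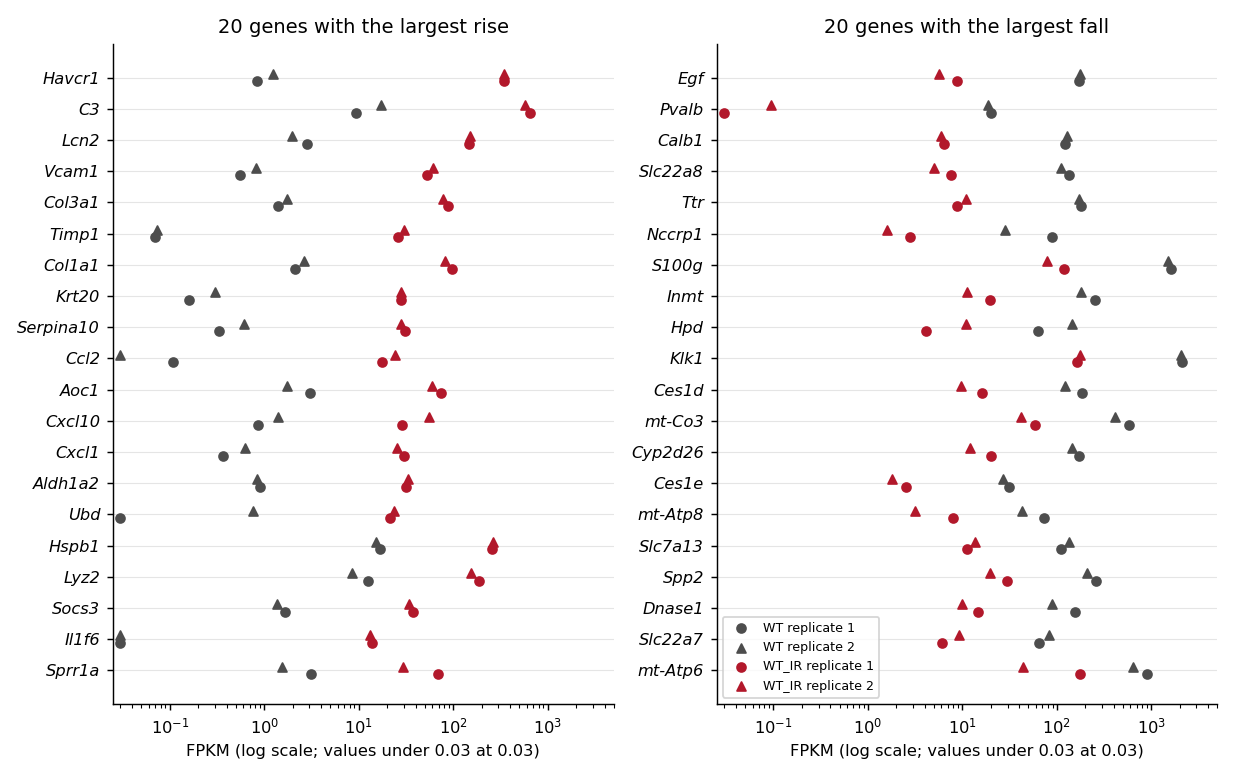
Level of the leading rising and falling genes in the 2 WT and the 2 WT_IR libraries, in FPKM on a log axis, with 1 point per library and values too low for the axis, 0 included, drawn at its left end. Havcr1 stands at 0.828 and 1.23 FPKM in WT and at 344 and 345 FPKM in WT_IR, and Egf at 172 and 173 FPKM and at 8.72 and 5.61 FPKM.

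The makeup of the transcript pool changed with these genes. Spp1, osteopontin, a secreted matrix and cytokine-like phosphoprotein, was at 926 and 913 FPKM in WT and 11701 and 12151 FPKM in WT_IR (log2 difference 3.70, SE 0.28, adjusted p = 0.000123), and became the most abundant gene of the injured kidney. Its share of all FPKM was 0.217% and 0.218% in WT and 3.99% and 4.07% in WT_IR. The next largest gains were those of Clu, the secreted chaperone clusterin, at 97.1 and 94.8 FPKM in WT and 989.8 and 1211 FPKM in WT_IR, and of B2m, the light chain of MHC class I, at 284 and 349.8 FPKM in WT and 843 and 1022 FPKM in WT_IR. The most abundant gene of the uninjured kidney, Gpx3, is the plasma glutathione peroxidase that proximal tubules secrete. It was at 21419 and 20918 FPKM in WT and 7206 and 7630 FPKM in WT_IR and its share went from 5.01% and 5.00% to 2.45% and 2.55%. Kap, the androgen-regulated protein of the mouse proximal tubule, was at 14647 and 15826 FPKM in WT and 4478 and 5164 FPKM in WT_IR. With no filter on low genes neither of them passed the test, at log2 differences of -1.51 and -1.66. The 2980 genes called higher made up 6.45% and 6.60% of all FPKM in WT and 22.9% and 23.1% in WT_IR. The 3616 genes called lower went from 67.5% and 67.8% to 41.4% and 40.7%. The share of a given set of genes does not depend on the scaling of a library. The called sets were chosen by their direction in these same libraries, so the direction of their shares is no independent result. Which genes they hold rests on the scaling.

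**Figure D3:**
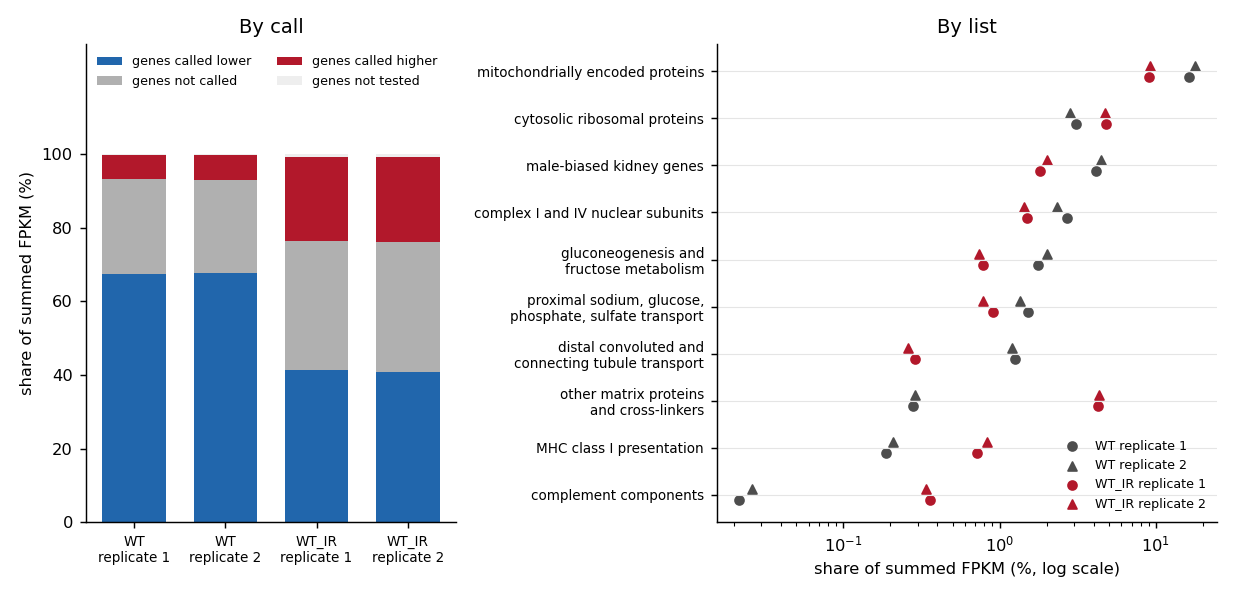
Share of the summed FPKM of each library, in percent, held by genes called higher, called lower, not called and not tested, with 1 bar per WT and WT_IR library (left), and held by 10 gene lists on a log axis, with 1 point per library (right). Genes called higher take 6.45% and 6.60% in WT and 22.9% and 23.1% in WT_IR. The list of other matrix proteins and cross-linkers takes 4.28% and 4.35% in WT_IR, and most of that is Spp1 alone, at 3.99% and 4.07%. The called sets were chosen by their direction in these same libraries.

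Nephron transport genes fell segment by segment. In whole-kidney RNA, fewer cells of a type and less RNA per cell cannot be told apart. Of 26 tested genes for proximal sodium, glucose, phosphate and sulfate transport, 20 fell and 3 rose, beside 23.2% and 19.1% of all genes, with a median log2 difference of -1.07. The phosphate transporters Slc34a1 and Slc34a3 were 4.29-fold and 7.33-fold lower, and Slc34a1 stood at 1396 and 1095 FPKM in WT and 348 and 233 FPKM in WT_IR. The glucose transporter SGLT2, Slc5a2, was at 207 and 188 FPKM in WT and 55.2 and 47.5 FPKM in WT_IR (log2 difference -1.93, SE 0.12, adjusted p = 7.28e-05). Against this direction, Slc34a2, a phosphate transporter better known from lung and gut, was at 1.19 and 0.916 FPKM in WT and 15.1 and 9.86 FPKM in WT_IR, and the widely expressed phosphate transporter Slc20a1 at 6.48 and 7.33 FPKM in WT and 26 and 34.6 FPKM in WT_IR. Organic ion transporters fell in 26 of 37 and rose in 3. Slc22a8, the basolateral organic anion transporter OAT3, fell most, from 135 and 111 FPKM to 7.57 and 4.98 FPKM, 19.6-fold lower. Abcc3, an efflux pump for conjugates, rose from 0.411 and 0.556 to 4.64 and 3.79 FPKM. Brush border peptidases and scaffolds fell in 18 of 24 and none rose, with the meprin subunit Mep1b at 49.5 and 53.1 FPKM in WT and 13.3 and 11.2 FPKM in WT_IR and gamma-glutamyltransferase, Ggt1, at 341 and 329.5 FPKM in WT and 96.8 and 87.6 FPKM in WT_IR. The endocytic receptor list, which takes filtered protein up, fell in 11 of 15, including cubilin, Cubn, at 25.2 and 26.3 FPKM in WT and 11.5 and 7.49 FPKM in WT_IR. On the TPM scale 11 brush border genes and 6 of the endocytic list fell.

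Distal segments fell as well. Of 19 thick ascending limb genes 16 fell and none rose: the sodium-potassium-chloride transporter Slc12a1 was at 333 and 238 FPKM in WT and 74.6 and 75.05 FPKM in WT_IR, and the potassium channel ROMK, Kcnj1, at 98.7 and 86.8 FPKM in WT and 27.3 and 30.5 FPKM in WT_IR. On the TPM scale 12 of this list fell. Umod of the same segment fell less, from 1612 and 1419 FPKM to 887 and 1059 FPKM (log2 difference -0.64, SE 0.21, adjusted p = 0.0433 in limma). That call was lost on the TPM scale (-0.13), after quantile normalization (-0.03) and with no filter on low genes. It was also lost when any 1 of the WT or WT_IR libraries was left out, at log2 differences of -0.51 to -0.77. The distal convoluted and connecting tubule list fell in 19 of 25 and rose in 3, with 12 falls on the TPM scale. Together the 26 genes of this list in the table took 1.26% and 1.21% of all FPKM in WT and 0.289% and 0.261% in WT_IR. The tissue kallikrein Klk1 was at 2120 and 2037 FPKM in WT and 162 and 176 FPKM in WT_IR, 12.3-fold lower (log2 difference -3.61, SE 0.12, adjusted p = 3.78e-05), and the calcium-binding proteins Calb1 and S100g were 20.3-fold and 15.6-fold lower. The thiazide-sensitive transporter Slc12a3 was at 185 and 180.4 FPKM in WT and 55.2 and 52.7 FPKM in WT_IR, or 3.39-fold lower. The apical calcium channels moved the other way: Trpv6 was at 0.549 and 0.904 FPKM in WT and 3.96 and 3.39 FPKM in WT_IR and Trpv5 at 8.43 and 8.38 FPKM in WT and 26.8 and 14.2 FPKM in WT_IR. Growth factor Egf, which this region of the nephron makes, was at 172 and 173 FPKM in WT and 8.72 and 5.61 FPKM in WT_IR. Of the 11 tested EGF family ligands and receptors it was the only fall and the neuregulin Nrg1, at 1.01 and 1.09 FPKM in WT and 4.26 and 3.27 FPKM in WT_IR, the only rise.

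In the collecting duct the 2 cell types differed in count. Of 23 intercalated cell genes 19 fell and none rose, with a median of -1.43. The chloride-bicarbonate exchangers pendrin, Slc26a4, and AE1, Slc4a1, were at 36.9 and 34.5 FPKM in WT and 6.67 and 6.13 FPKM in WT_IR and at 20.2 and 14.01 FPKM in WT and 1.28 and 1.16 FPKM in WT_IR; Slc4a1 is also the anion exchanger of red cells. Of 21 water and sodium transport genes of the duct 7 fell and 1 rose, beside 23.2% and 19.1% of all genes. Their median of -0.28 turned positive on the TPM scale, where 3 fell and 3 rose. Aqp3 was at 112 and 82.7 FPKM in WT and 29.3 and 36.8 FPKM in WT_IR and the sodium channel subunit Scnn1a at 61.4 and 49.2 FPKM in WT and 20.1 and 15.3 FPKM in WT_IR. The water channel Aqp2 did not pass the test, at 484 and 248 FPKM in WT and 222 and 197 FPKM in WT_IR; without WT replicate 2 it passed, with a log2 difference of -1.20. The summed level of 7 principal cell markers already differed between the WT pools, 841 and 480 FPKM, against 407 and 385 FPKM in WT_IR, and the part of this difference in the result was not tested.

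**Figure D4:**
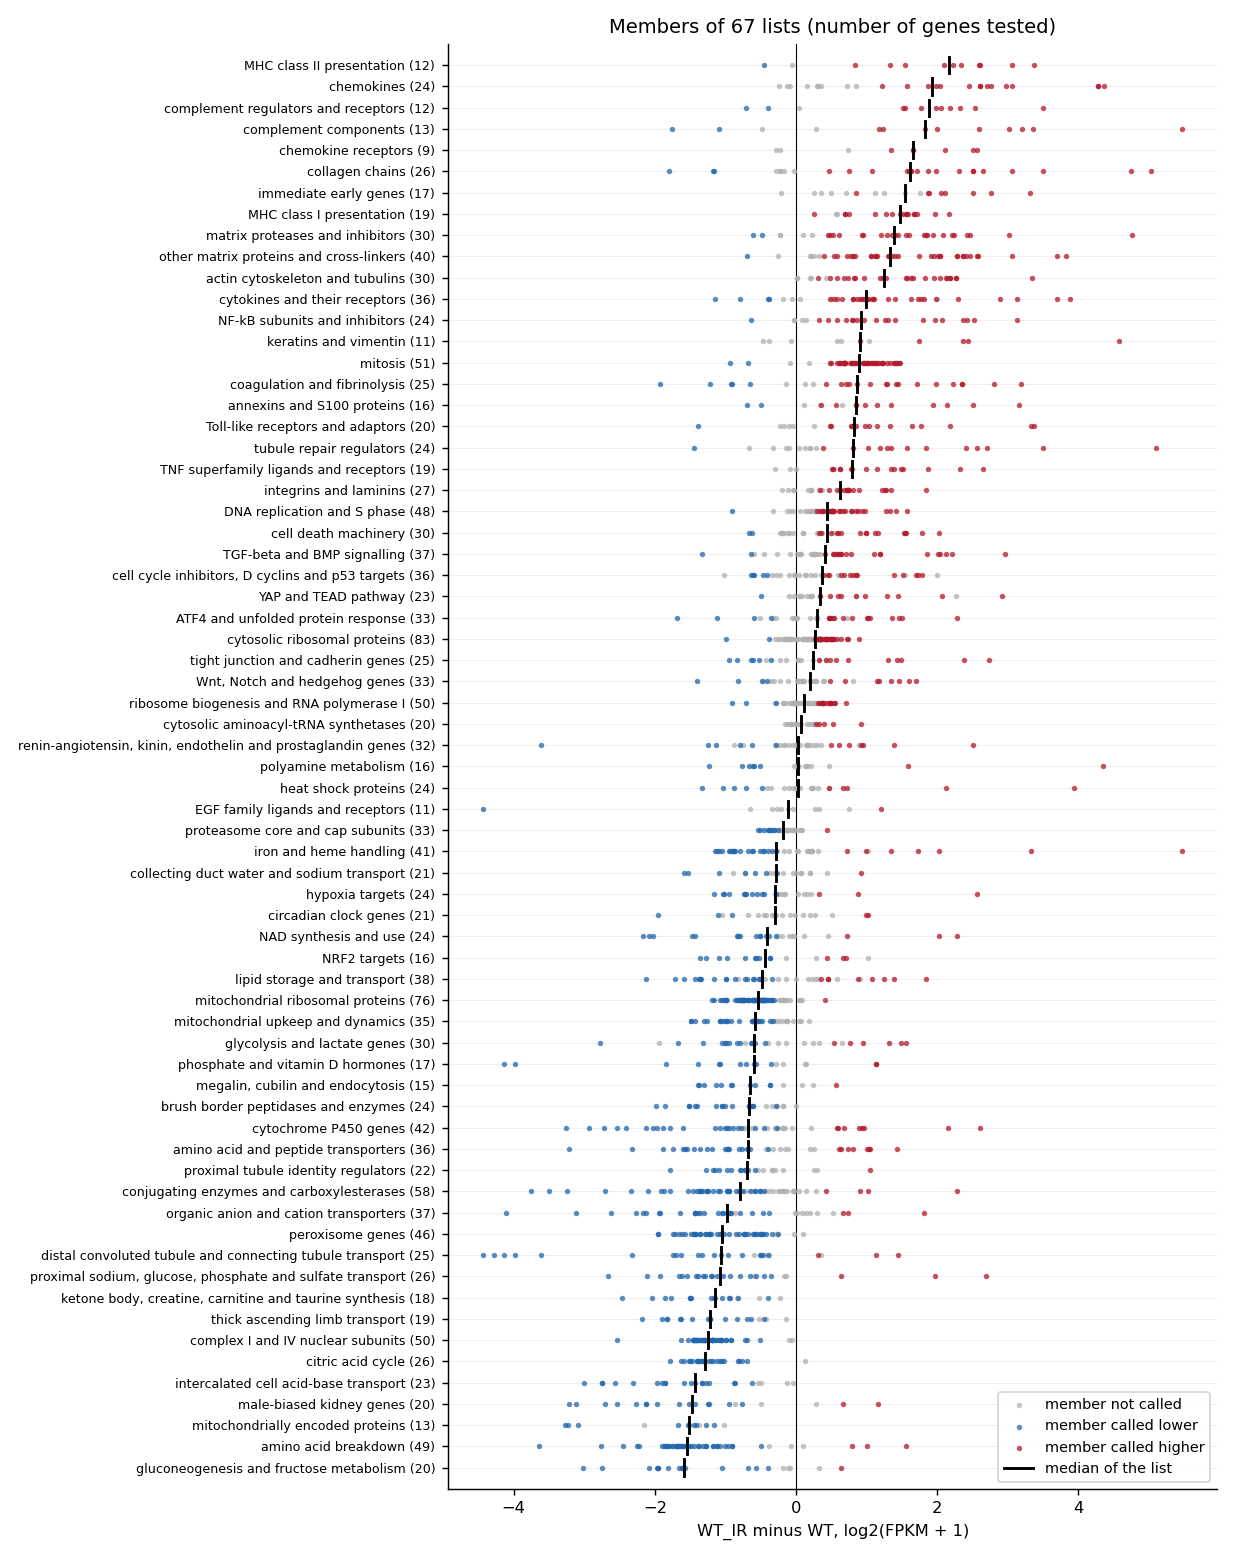
For each gene list, the log2 difference between WT_IR and WT of every tested member (points) and their median. The medians run from lists such as amino acid breakdown at -1.54 and intercalated cell transport at -1.43 to lists such as collagen chains at 1.61 and chemokines at 1.93, with polyamine metabolism at 0.03 and heat shock proteins at 0.02.

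Regulators of the proximal tubule programme fell too. Of 22 such regulators 13 fell and 1, the acute-phase regulator Cebpb, rose, and 8 fell on the TPM scale. The nuclear receptor Hnf4a, which drives proximal tubule differentiation, was at 229 and 224 FPKM in WT and 99.2 and 86.9 FPKM in WT_IR (log2 difference -1.28, SE 0.1, adjusted p = 0.000142). Emx1 was at 34.4 and 33 FPKM in WT and 8.96 and 9.13 FPKM in WT_IR and the vitamin D receptor Vdr at 57.1 and 54.1 FPKM in WT and 25.6 and 25.7 FPKM in WT_IR. Hnf4g, a close relative of Hnf4a, did not pass, with a log2 difference of -0.19 (95% interval -0.71 to 0.33). Genes known from tubule repair went up in 13 of 24 and down in 1. Sox9, which marks regenerating tubule cells, was at 0.254 and 0.516 FPKM in WT and 13.2 and 16.3 FPKM in WT_IR. Vcam1, an adhesion molecule of activated endothelium and of maladaptive proximal cells, was at 0.556 and 0.817 FPKM in WT and 52.6 and 61.05 FPKM in WT_IR. Sox4 was 4.33-fold and Dcdc2a 8.67-fold higher. The homeobox gene Lhx1 was the fall, at 9.58 and 13 FPKM in WT and 3.48 and 3.48 FPKM in WT_IR.

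Cytoskeletal and junction genes moved in several families. Of 30 actin, tubulin and associated genes 25 rose and none fell, with a median of 1.25. The actin-binding thymosin Tmsb10 was at 11.2 and 10.1 FPKM in WT and 111 and 124 FPKM in WT_IR, and the tubulin Tubb2b at 9.12 and 8.09 FPKM in WT and 41.4 and 43.5 FPKM in WT_IR. Annexins and S100 proteins rose in 11 of 16 and fell in 2: Anxa3 was 7.197-fold and S100a6 10.3-fold higher, while S100a1 was at 347 and 311 FPKM in WT and 196 and 211 FPKM in WT_IR, a fall that did not pass on the TPM scale or after quantile normalization. Vimentin, Vim, the intermediate filament of mesenchymal and dedifferentiated cells, was at 9.25 and 7.86 FPKM in WT and 50.7 and 45.96 FPKM in WT_IR. Claudins, which set the permeability of tight junctions, split. Cldn1, Cldn3 and Cldn4 were 6.12-fold, 2.95-fold and 7.02-fold higher, whereas Cldn10 of the thick limb and proximal tubule was 1.81-fold lower. E-cadherin, Cdh1, did not pass, with a log2 difference of 0.03 (95% interval -0.22 to 0.27), though on the TPM scale it passed as a rise of 0.54.

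Genes of oxidative metabolism fell nearly throughout. Of 50 nuclear-encoded subunits of respiratory complexes I and IV, 48 fell and none rose, with a median of -1.25, beside 23.2% of all genes. Ndufa10, for example, was at 88.7 and 76.7 FPKM in WT and 26.1 and 25.6 FPKM in WT_IR. Of 26 citric acid cycle genes 25 fell, with succinate dehydrogenase subunit Sdha at 255 and 237 FPKM in WT and 89.9 and 85.2 FPKM in WT_IR. The 1 that did not pass was the malic enzyme Me2, with a log2 difference of 0.13, and it passed as a rise of 0.62 on the TPM scale. Proteins encoded by the mitochondrial genome fell in 10 of 13, with the complex I subunits mt-Nd2 at 7202 and 8057 FPKM in WT and 2401 and 2403 FPKM in WT_IR and mt-Nd4 at 5557 and 6106 FPKM in WT and 1997 and 2025 FPKM in WT_IR. Neither of these 2 subunits passed with no filter on low genes, at log2 differences of -1.66 and -1.53. The 13 genes together took a share of all FPKM of 16.3% and 17.7% in WT and 9.08% and 9.15% in WT_IR. mt-Atp8 and mt-Atp6 overlap on the mitochondrial chromosome, so that their fragments cannot be separated. Mitochondrial superoxide dismutase, Sod2, was at 98.5 and 85.7 FPKM in WT and 32.95 and 31.2 FPKM in WT_IR, and the deacetylase Sirt3 at 14.6 and 15.2 FPKM in WT and 5.603 and 5.26 FPKM in WT_IR.

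Other metabolic lists had medians below 0 as well. Amino acid breakdown fell in 43 of 49 genes, with glycine decarboxylase, Gldc, 6.89-fold and 4-hydroxyphenylpyruvate dioxygenase, Hpd, 13.9-fold lower. Hpd differed between the WT pools, at 63.5 and 146 FPKM in WT and 4.09 and 10.99 FPKM in WT_IR. The rises included Arg2, mitochondrial arginase, at 4.93 and 7.16 FPKM in WT and 16.4 and 22.9 FPKM in WT_IR, and the folate enzyme Mthfd2, at 2.495 and 2.15 FPKM in WT and 5.64 and 5.63 FPKM in WT_IR. Gluconeogenesis and fructose metabolism fell in 15 of 20. Pck1, the rate-limiting enzyme of gluconeogenesis, was at 1547 and 2092 FPKM in WT and 221 and 319 FPKM in WT_IR (log2 difference -2.75, SE 0.25, adjusted p = 0.000214), while its mitochondrial counterpart Pck2 was the rise, at 5.49 and 4.67 FPKM in WT and 8.12 and 8.74 FPKM in WT_IR. By calls, glycolysis did not rise as a list: 6 of 30 genes rose and 15 fell, beside 19.1% and 23.2% of all genes. Its share of all FPKM was somewhat higher after injury, at 0.77% and 0.70% in WT and 0.81% and 0.84% in WT_IR. On the TPM scale 9 rose and 9 fell. The hexokinase Hk2 was at 0.103 and 0.0759 FPKM in WT and 2.48 and 1.95 FPKM in WT_IR. The hexokinase Hk3 was at 0.184 and 0.105 FPKM in WT and 2.26 and 2.17 FPKM in WT_IR. By contrast, phosphoglycerate kinase Pgk1 was at 268 and 254 FPKM in WT and 128 and 124 FPKM in WT_IR. The muscle-type mutase Pgam2 was 7.33-fold lower.

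Peroxisomal genes fell in 42 of 46 with none higher, and in 25 on the TPM scale, including the long-chain oxidase Acox3 at 32.1 and 32.8 FPKM in WT and 11.97 and 12.03 FPKM in WT_IR. Of 18 genes listed for ketone body, creatine, carnitine and taurine synthesis 15 fell. Oxct1, which is in this list but lets tissues burn ketones, was at 399 and 388 FPKM in WT and 76.1 and 65.7 FPKM in WT_IR. NAD enzymes fell in 14 of 24 and rose in 3, with a median of -0.41 that turned positive on the TPM scale, where 6 fell and 9 rose. The enzymes that make quinolinate from tryptophan fell (Kmo 4.84-fold and Haao 4.58-fold lower), and Nnmt, which uses up nicotinamide by methylation, was at 0.0391 and 0.123 FPKM in WT and 4.12 and 4.37 FPKM in WT_IR. Conjugating enzymes and carboxylesterases fell in 37 of 58, with Inmt 14.1-fold and Ces1d 12-fold lower. Cytochrome P450 genes fell in 22 of 42 and rose in 8, beside 23.2% and 19.1% of all genes, so the rises lay near the share of all genes. Cyp1b1 was among the rises, at 1.43 and 3.58 FPKM in WT and 18.8 and 19.8 FPKM in WT_IR. Male-biased kidney genes, many of them proximal, fell in 15 of 20, with Slc7a13 of the straight segment at 109.9 and 136 FPKM in WT and 11.2 and 13.5 FPKM in WT_IR.

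The inflammatory genes rose across ligands, receptors and signal carriers. Of 24 tested chemokines 15 rose and none fell, with a median of 1.93. Cxcl1, which attracts neutrophils, was at 0.362 and 0.621 FPKM in WT and 30.4 and 25.3 FPKM in WT_IR, and the interferon-induced Cxcl10 at 0.849 and 1.41 FPKM in WT and 28.9 and 55.8 FPKM in WT_IR. Cx3cl1 and Cxcl16, membrane-bound chemokines that epithelia can make, were 3.09-fold and 3.84-fold higher, and fractalkine's receptor Cx3cr1 was at 1.05 and 1.31 FPKM in WT and 10.5 and 12.3 FPKM in WT_IR. Chemokine receptors rose in 6 of 9, including Ccr2 of inflammatory monocytes at 0.329 and 0.679 FPKM in WT and 7.24 and 8.44 FPKM in WT_IR. Among 36 cytokine genes 27 rose and 4 fell. The macrophage growth factors Csf1 and Il34, which share the receptor CSF1R, were 5.49-fold and 8.17-fold higher. Socs3, the feedback inhibitor of gp130 and STAT3 signalling, was at 1.64 and 1.36 FPKM in WT and 37.5 and 34.2 FPKM in WT_IR (log2 difference 3.88, SE 0.13, adjusted p = 3.78e-05). Mif was among the falls, at 404 and 347 FPKM in WT and 169 and 167 FPKM in WT_IR.

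Of 24 NF-kB subunits, inhibitors and regulators 19 rose and 1 fell. The members of the alternative arm Relb and Nfkb2 were at 1.79 and 2.28 FPKM in WT and 14.8 and 14.4 FPKM in WT_IR and at 8.86 and 10.2 FPKM in WT and 39.98 and 40.6 FPKM in WT_IR, and the atypical inhibitor-family co-regulator Bcl3 at 2.99 and 2.75 FPKM in WT and 35.1 and 30.7 FPKM in WT_IR. The fall was Chuk, the kinase IKK-alpha, at 30.1 and 37.9 FPKM in WT and 22.5 and 20.3 FPKM in WT_IR, a call that was lost on the TPM scale. Toll-like receptor genes rose in 14 of 20, with Tlr2 at 1.25 and 1.27 FPKM in WT and 20.6 and 24.2 FPKM in WT_IR and the co-receptor Cd14 at 4.79 and 3.46 FPKM in WT and 47.7 and 52.5 FPKM in WT_IR. In the complement system C3, on chromosome 17 at 57203970 to 57228136, was at 9.42 and 17.3 FPKM in WT and 650.1 and 579 FPKM in WT_IR, a log2 difference of 5.48 (SE 0.25, adjusted p = 4.59e-05). The 3 chains of C1q, C1qa, C1qb and C1qc, which macrophages make, were 8.57-fold, 11.1-fold and 10.8-fold higher. C8a and C8g of the terminal complex were 5.34-fold and 2.39-fold lower. The 21 complement genes in the table went from 0.0217% and 0.0259% of all FPKM to 0.359% and 0.336%. MHC class I presentation rose in 17 of 19, with H2-K1 at 148 and 150.3 FPKM in WT and 448 and 537 FPKM in WT_IR and the immunoproteasome subunit Psmb10 at 8.72 and 7.36 FPKM in WT and 34.6 and 33.7 FPKM in WT_IR. The constitutive proteasome fell in 10 of 33 and rose in 1, beside 23.2% and 19.1% of all genes, with a median of -0.19. Its direction rests on the scaling, since on the TPM scale 23 were higher and none lower, and after quantile normalization 9 were higher and 2 lower.

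Promoters of 6 of the named genes are shown. They were picked because a short motif lies in them, so the presence of a match in these 6 is no result. Sequences are RefSeq promoters of GRCm38.p6, from 250 bases before to 50 bases after the start of the gene on its own strand, and capitals mark the motif. The motifs were searched on both strands as exact letters, with N for any base. They were TGANTCA for AP-1, TTCNNNGAA for STAT factors, CAAAGNNCA for HNF4 and 1 longer motif each for NF-kB, interferon response factors and HNF1, given here by name alone. Marked are NF-kB in Cxcl1 (chr5:90890995-90891294, plus strand), NF-kB and interferon response in B2m (chr2:122147437-122147736, plus), interferon response and AP-1 in Cxcl10 (chr5:92348840-92349139, minus), STAT in Socs3 (chr11:117969317-117969616, minus, where the RefSeq start lies 681 bases from the start of the gene in the deposited table), and HNF4 in Cyp2d26 (chr15:82794196-82794495, minus) and Spp2 (chr1:88406760-88407059, plus).
Cxcl1: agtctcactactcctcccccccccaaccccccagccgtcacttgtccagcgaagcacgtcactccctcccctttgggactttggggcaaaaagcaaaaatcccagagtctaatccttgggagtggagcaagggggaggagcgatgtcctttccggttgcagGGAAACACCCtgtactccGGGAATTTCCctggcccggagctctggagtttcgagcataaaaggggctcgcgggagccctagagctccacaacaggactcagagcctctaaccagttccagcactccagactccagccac
B2m: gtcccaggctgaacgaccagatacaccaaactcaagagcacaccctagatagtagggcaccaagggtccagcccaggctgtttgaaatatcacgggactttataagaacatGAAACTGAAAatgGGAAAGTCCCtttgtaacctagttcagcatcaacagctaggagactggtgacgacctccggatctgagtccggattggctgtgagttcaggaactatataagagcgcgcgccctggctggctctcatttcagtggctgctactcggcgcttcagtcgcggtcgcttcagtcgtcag
Cxcl10: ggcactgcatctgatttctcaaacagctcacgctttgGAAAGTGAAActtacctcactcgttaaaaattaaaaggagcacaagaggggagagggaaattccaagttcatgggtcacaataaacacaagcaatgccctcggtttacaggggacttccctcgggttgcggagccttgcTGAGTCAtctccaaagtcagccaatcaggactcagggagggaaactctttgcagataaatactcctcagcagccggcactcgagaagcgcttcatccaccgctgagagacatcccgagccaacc
Socs3: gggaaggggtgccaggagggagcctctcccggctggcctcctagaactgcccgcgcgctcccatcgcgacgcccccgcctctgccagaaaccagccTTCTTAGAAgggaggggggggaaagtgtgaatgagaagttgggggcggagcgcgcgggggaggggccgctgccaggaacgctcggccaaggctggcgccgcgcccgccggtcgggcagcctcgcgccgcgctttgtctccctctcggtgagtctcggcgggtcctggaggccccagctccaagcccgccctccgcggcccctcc
Cyp2d26: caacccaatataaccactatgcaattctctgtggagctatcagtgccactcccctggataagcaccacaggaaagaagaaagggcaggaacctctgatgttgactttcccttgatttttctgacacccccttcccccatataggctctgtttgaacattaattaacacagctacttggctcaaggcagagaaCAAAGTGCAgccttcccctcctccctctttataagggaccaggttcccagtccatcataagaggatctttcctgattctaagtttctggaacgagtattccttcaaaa
Spp2: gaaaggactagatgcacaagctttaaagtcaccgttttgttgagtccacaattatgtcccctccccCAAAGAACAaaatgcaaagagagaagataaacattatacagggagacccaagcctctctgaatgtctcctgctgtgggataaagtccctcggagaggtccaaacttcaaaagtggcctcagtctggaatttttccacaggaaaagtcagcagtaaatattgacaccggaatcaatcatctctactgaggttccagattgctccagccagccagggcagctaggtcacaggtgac

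The first 4 genes rose and the last 2 fell: the P450 gene Cyp2d26 was at 171 and 146 FPKM in WT and 20.2 and 11.9 FPKM in WT_IR, and Spp2, a secreted phosphoprotein, at 259 and 207 FPKM in WT and 29.5 and 19.8 FPKM in WT_IR. A promoter could be matched for 9915 of 12381 tested protein-coding genes. The NF-kB letters were in 1.62% of these promoters, in 4.05% of the 791 of genes that rose at least 2-fold and in 1.34% of the 672 of genes that fell at least 2-fold. For the interferon response letters the shares were 3.08%, 7.71% and 2.23%, and for AP-1 they were 4.84%, 9.99% and 5.36%. STAT letters were in 6.8%, 9.36% and 6.1%. HNF4 letters were in 5.15% of all, 6.83% of risen and 9.52% of fallen genes, and HNF1 letters in 0.333%, 0.379% and 1.49%. The median GC content was 60.7%, 58.3% and 57.3%, and its part in these shares was not tested. Matches also lay in named genes of the other direction, which are not shown: HNF4 letters in the collagen gene Col3a1, which rose, and AP-1 letters in Hpd, which fell. A match is a description of letters and not a bound site.

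Most matrix genes rose. Collagen chains rose in 18 of 26 and fell in 3, with a median of 1.61. The fibrillar chains Col1a1 and Col3a1 were at 2.12 and 2.603 FPKM in WT and 97.6 and 81.95 FPKM in WT_IR and at 1.38 and 1.74 FPKM in WT and 87.01 and 78.3 FPKM in WT_IR. Basement membrane chains divided: Col4a1 was at 36.2 and 42.6 FPKM in WT and 149 and 145 FPKM in WT_IR, while Col4a3 and Col4a4 of the glomerular membrane were 2.36-fold and 2.304-fold lower. Of 40 other matrix proteins and cross-linkers 34 rose and 1, Fmod, fell. Emilin1, an elastic fibre protein, was at 6.06 and 5.61 FPKM in WT and 37.2 and 33.2 FPKM in WT_IR (log2 difference 2.40, SE 0.087, adjusted p = 4.16e-05), and Fn1, fibronectin, 11.6-fold higher. Matrix proteases and their inhibitors rose in 24 of 30, including Adamts1 at 9.31 and 9.96 FPKM in WT and 84.8 and 85.6 FPKM in WT_IR and Mmp14 at 1.78 and 2.62 FPKM in WT and 15.4 and 12.6 FPKM in WT_IR. Of 37 genes of TGF-beta and BMP signalling 19 rose and 2 fell, with 29 rises on the TPM scale. The ligand Tgfb1 was at 2.51 and 2.76 FPKM in WT and 11.9 and 12.4 FPKM in WT_IR and its target Tgfbi at 2.83 and 3.55 FPKM in WT and 32.7 and 30.3 FPKM in WT_IR, while Bmp7, a BMP of the tubule, was at 20.5 and 14.9 FPKM in WT and 7.005 and 5.67 FPKM in WT_IR. Mgp, an inhibitor of calcification, was at 25.1 and 42.8 FPKM in WT and 364 and 468 FPKM in WT_IR.

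Most mitosis genes rose. Of 51 tested, 47 rose and 2 fell, with a median of 0.90. Of 48 genes of DNA replication 28 rose, 1 fell and 19 did not pass, with a median of 0.44, and 17 rose after quantile normalization and 44 on the TPM scale. The proliferation marker Mki67 was at 1.77 and 1.66 FPKM in WT and 6.55 and 5.64 FPKM in WT_IR and the topoisomerase Top2a at 1.62 and 1.34 FPKM in WT and 5.55 and 5.83 FPKM in WT_IR. Pttg1 and Spc25 were the falls among mitosis genes, at 22.9 and 25.9 FPKM in WT and 14.1 and 15.4 FPKM in WT_IR and at 12.2 and 11.7 FPKM in WT and 5.18 and 6.39 FPKM in WT_IR, the former not on the TPM scale. The p53 gene, Trp53, was at 8.98 and 8.85 FPKM in WT and 17.4 and 16.5 FPKM in WT_IR, and its pro-apoptotic target Bbc3 at 2.24 and 3.05 FPKM in WT and 10.2 and 12.9 FPKM in WT_IR. Cytosolic ribosomal proteins rose in 33 of 83, each by less than 2-fold, and in 73 on the TPM scale and 72 after quantile normalization. Mitochondrial ribosomal proteins fell in 60 of 76, but on the TPM scale 14 were lower and 9 higher, with a median of -0.10. As a share of all FPKM the cytosolic proteins went from 3.09% and 2.81% to 4.82% and 4.69%. Of 30 cell death genes 16 rose and 2 fell. The pore-forming gasdermin D, Gsdmd, was at 1.87 and 1.77 FPKM in WT and 9.99 and 10.9 FPKM in WT_IR, and the necroptosis proteins Mlkl and Ripk3 were 7.58-fold and 6.06-fold higher. Gpx4, which guards lipids against ferroptosis, was at 401 and 398 FPKM in WT and 249.5 and 253 FPKM in WT_IR, a fall that did not pass on the TPM scale or after quantile normalization.

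Stress lists did not move as 1 group. Heat shock genes rose in 5 of 24 and fell in 5, near the 19.1% and 23.2% of all genes, and on the TPM scale 14 were higher and 3 lower. Among them the small chaperone Hspb1 was at 16.9 and 15.1 FPKM in WT and 256 and 261 FPKM in WT_IR, whereas the mitochondrial chaperones Hspd1 and Hspe1 were 2.54-fold and 1.85-fold lower. Hypoxia targets rose in 3 of 24 and fell in 12, with a median of -0.29 that turned positive on the TPM scale, where 7 rose and 5 fell. Vegfa was at 79.7 and 71.2 FPKM in WT and 36.96 and 36.6 FPKM in WT_IR. NRF2 targets rose in 3 of 16 and fell in 10, again with a median, -0.45, whose sign turned on the TPM scale, where 5 rose and 4 fell. Among genes of the amino acid and unfolded protein responses 14 of 33 rose, or 25 on the TPM scale, with Trib3 at 0.203 and 0.304 FPKM in WT and 4.74 and 5.51 FPKM in WT_IR. Immediate early genes rose in 8 of 17 and none fell, with Junb at 9.17 and 9.36 FPKM in WT and 65.5 and 71.5 FPKM in WT_IR. In iron handling Cp, ceruloplasmin, was at 3.51 and 5.38 FPKM in WT and 53.2 and 53.04 FPKM in WT_IR, while the transporter Flvcr2 and the heme and folate carrier Slc46a1 were 2.14-fold and 2.21-fold lower. Aoc1, diamine oxidase, was at 3.05 and 1.73 FPKM in WT and 74.6 and 59.3 FPKM in WT_IR, and ornithine decarboxylase, Odc1, at 147 and 144 FPKM in WT and 66.4 and 56.4 FPKM in WT_IR. Klotho, Kl, the co-receptor of FGF23, was at 79.4 and 75.3 FPKM in WT and 26.2 and 16.4 FPKM in WT_IR.

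Among noncoding genes the calls were uneven. Of 376 lincRNAs 21 rose and 95 fell, and of 102 snoRNAs 14 rose and 4 fell, beside 2767 rises and 3127 falls of 12701 protein-coding genes. The host transcript of miR-142, Mir142hg, known from blood cells, was at 1.15 and 0.962 FPKM in WT and 4.41 and 8.78 FPKM in WT_IR, a call that was lost when either WT library or WT_IR replicate 2 was left out (log2 difference 1.40 to 1.89 without them). Poly-A selection does not capture mature miRNAs, and without stated strand a noncoding gene that overlaps a coding one can hold its fragments.

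Summed marker levels moved beside these lists. The 10 markers of the whole proximal tubule summed to 5033 and 4806 FPKM in WT and 1533 and 1185 FPKM in WT_IR, and those of the distal convoluted tubule to 331 and 331 FPKM and 63.4 and 60.1 FPKM. Podocyte markers summed to 120.5 and 114 FPKM in WT and 90.4 and 93.5 FPKM in WT_IR. The 12 macrophage markers went from 62.9 and 69.8 FPKM to 584 and 567 FPKM, and 11 of them passed the test. Monocyte markers summed to 7.87 and 6.20 FPKM and to 87.7 and 73.8 FPKM, and fibroblast and pericyte markers to 28.8 and 38.4 FPKM and to 107 and 119 FPKM. Neutrophil markers summed to 6.75 and 3.98 FPKM in WT and 18.8 and 12.9 FPKM in WT_IR. T and NK cell markers stood at 3.62 and 3.38 FPKM and at 21.9 and 30.7 FPKM, and B and plasma cell markers at 14.4 and 26.7 FPKM and at 60.6 and 80.3 FPKM. Endothelial markers went from 193 and 203 FPKM to 276 and 280 FPKM. Red cell markers went from 277 and 340 FPKM to 137 and 182 FPKM. All 5 mast cell markers were at 0. The part of these cell types in the gene lists above was not tested.

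The response of the knockout to the same surgery was set beside that of wild type. As a check of the label, Ehmt2 was at 33.4 and 30.3 FPKM in WT and 34.5 and 35.8 FPKM in WT_IR and at 28.1 and 26.4 FPKM in KO and 27.3 and 26.3 FPKM in KO_IR, so its RNA was present in the whole kidney of the knockout. The difference between the responses, tested as the interaction of injury and genotype in limma, was above 0 for 1042 genes, 6.68% of those tested, and below 0 for 1502, or 9.62%. This test shares the WT and WT_IR libraries with the comparison above. Klk1 was at 1848 and 1821 FPKM in KO and 1840 and 1693 FPKM in KO_IR, and its log2 difference was -3.61 in wild type and -0.06 in the knockout (difference -3.56, SE 0.17, adjusted p = 0.00101). Egf stood at 229 and 262 FPKM in KO and 169.6 and 188 FPKM in KO_IR, a log2 difference of -0.45 beside -4.44 in wild type. The nuclear subunits of complexes I and IV had a median of -0.12 in the knockout beside -1.25, and 46 of 50 had an interaction below 0. Amino acid breakdown had a median of -0.26 beside -1.54, with 41 of 49 below 0, and the citric acid cycle -0.18 beside -1.29, with 24 of 26 below 0.

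Among division genes, Mki67 had a log2 difference of 1.39 in wild type and 1.09 in the knockout (difference 0.30, SE 0.16, adjusted p = 0.269 in limma). It was at 0.395 and 0.533 FPKM in KO and 2.22 and 2.01 FPKM in KO_IR, a lower start than 1.77 and 1.66 FPKM in WT. The log2(FPKM + 1) scale understates changes from so low a level, so the order of these differences need not hold for folds of FPKM. Medians of low genes carry the same limit. Of the 51 mitosis genes 3 had an interaction above 0 and 2 below, beside 6.68% and 9.62% of all genes, with medians of 0.90 in wild type and 0.55 in the knockout. Cytosolic ribosomal proteins had medians of 0.27 and 0.18, and 2 of 83 passed. Collagen chains had medians of 1.61 and 0.62, with 14 of 26 above 0 and 2 below, and chemokines 1.93 and 0.64, with 13 of 24 above 0. A smaller number of passed tests does not show that the genotypes respond alike. Single libraries weigh on the counts over all genes. The count above 0 was 451 without KO replicate 2, 480 and 493 without WT_IR replicate 2 and 1, 510 without WT replicate 1 and 597 without KO_IR replicate 1. The count below 0 was 809 and 875 without WT_IR replicate 2 and 1, 842 and 955 without KO replicate 2 and 1, 844 without WT replicate 1 and 946 without KO_IR replicate 1.

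**Figure D5:**
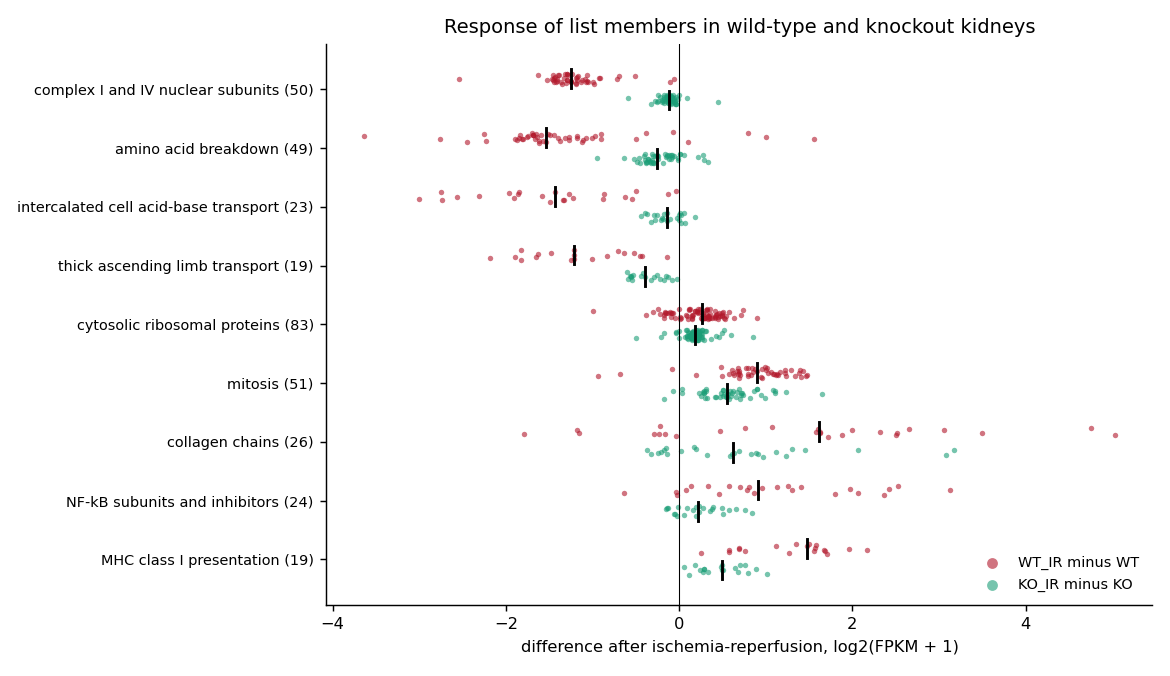
Difference after ischemia-reperfusion on the log2(FPKM + 1) scale for every tested member of 9 lists, with WT_IR minus WT and KO_IR minus KO in separate rows, 1 point per gene and a black bar at the median. Complexes I and IV have medians of -1.25 in wild type and -0.12 in the knockout, and mitosis genes of 0.90 and 0.55.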

How the data were processed

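The authors deposited FPKM values for 54251 genes in 8 libraries. Per the submitters' processing notes reads were aligned with HISAT2 2.0.5 to mm10 (GRCm38.p6). For the counting tool, the strand setting and the annotation release, the sources used here name none. The product of FPKM and gene length came out as whole fragments for 100% of genes (tolerance 1e-06). The implied library size was 0.921 and 0.932 times the fragment total in WT and 1.18 and 1.19 times in WT_IR, so a scaling that goes with the group is already in the values.

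The 15607 genes whose mean reached 0.5 FPKM were tested on log2(FPKM + 1) with limma 3.58.1 under R 4.3.3, fitting a mean for each group over all 8 libraries, a mean-variance trend and Benjamini-Hochberg adjustment at 0.05, which left 4 residual degrees of freedom and 3.04 from the prior. The steps were tested on simulated data. The labels do not say that replicate numbers pair pools, so no block was used. Lists are described by counts and medians, without a test. The members and lists were chosen with earlier results of these data known. The named genes are the leading protein-coding genes by fold, by gain or loss in FPKM, and by appearance or loss, the leading noncoding genes, and in each list those of smallest p. Genes given as exceptions or as not passing were chosen after their values were seen. Promoters were searched in RefSeq sequences, with chromosome 18 left out. Alternatives covered the pseudocount, filter, scaling, variance model, block, voom in limma on recovered fragments, and each library left out in turn.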

Additional observations from a re-analysis of the deposited data

Results flagged for a closer look

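The difference between the responses of wild type and knockout to ischemia-reperfusion was itself tested, as the interaction term in limma, and passed for the following results. Over all genes it was above 0 for 1042 and below 0 for 1502. Among 10 genes chosen with their wild-type response known, 8 passed. The wild-type log2 difference exceeded that of the knockout by 3.95 for Havcr1 (7.42 against 3.46, SE 0.94, adjusted p = 0.032), by 3.49 for Lcn2, by 2.57 for Aldh1a2, by 2.48 for Socs3, by 2.02 for Spp1 and by 1.67 for Col1a1. The difference was -3.98 for Egf and -3.56 for Klk1, where wild type fell from 2120 and 2037 FPKM to 162 and 176 FPKM. Lyz2, of macrophages, did not pass (1.75, SE 0.59, adjusted p = 0.091), and neither did Mki67. In Havcr1 the KO pools stood apart from each other, at 0.593 and 7.5 FPKM. These values share the WT and WT_IR libraries with the wild-type comparison, and the cause of the differences was not tested.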

How the results depend on the processing

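On the TPM scale 7486 genes were higher and 1554 lower, 2673 higher and 543 lower by at least 2-fold, and the interaction was above 0 for 3783 and below 0 for 745. A minimum mean of 5 FPKM, which leaves 7728 genes, gave 1312 higher and 2922 lower, 429 higher by at least 2-fold, and 576 interactions above 0. A pseudocount of 5, which shrinks low genes, gave 408 higher and 616 lower by at least 2-fold. With no filter 968 interactions were below 0. Limits of 0.2 and 2 FPKM gave 38 genes that appeared and 6 that disappeared, and an interval limit of 0.3 left 1024 genes with a small difference. Voom in limma on the recovered fragments gave 3146 higher and 3732 lower, median-of-ratios factors 2981 and 3616, and quantile normalization 3096 and 3484. The cause of the shifts under other scalings was not tested.

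Leaving out each library in turn gave 2168 to 2967 genes higher and 2612 to 3587 lower, 1107 to 1196 higher and 978 to 1163 lower by at least 2-fold, and interactions above 0 for 451 to 852 genes and below 0 for 809 to 1463. The group that loses a library is then assumed to vary like the others. With the replicate number as a block, 2884 genes were higher and 3518 lower, and the interaction was above 0 for 1001 and below 0 for 1472. The deviations of same-numbered pools correlated at 0.113 for WT and WT_IR and at 0.164 for KO and KO_IR. They correlated at -0.122 for WT and KO and 0.00586 for WT_IR and KO_IR. With 2 pools per group these values cannot decide whether equal numbers pair pools.

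The list medians that changed sign on the TPM scale were those of hypoxia targets, NRF2 targets, NAD enzymes, iron and heme, lipid storage, circadian clock, EGF family, collecting duct transport, principal cell and podocyte genes. The proteasome median changed on the TPM scale and after quantile normalization, and the polyamine median after quantile normalization. No gene named in the text reversed while called. With 2 pools of 3 mice per group, changes under 2-fold in genes near the floor of 3 fragments are the least certain.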
